A study of Homo sapiens with 12 samples.

Results

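Human chromosome 6 carried 12337 of the 164693 ChIP-seq peaks in the 4 deposited lists, and these 12337 intervals are described here along the short arm (6p) and the long arm (6q). All intervals listed on chromosome 6 were taken, whatever their strength, split at 60 Mb (GRCh37) and placed in bins of 1 Mb by the position of their summit. Chromosome 6 was itself selected on measured values, namely the peak densities of its arms in HepG2 and Huh7, so densities by arm and by stretch are given as a description, without a test. The 12 samples were 3 from each of 4 cell populations, namely a ChIP with a specific antibody, a ChIP with mouse IgG and the input, 1 library per condition. The populations were HepG2 and Huh7, both labelled as hepatocellular carcinoma cell lines, and stably transfected derivatives of each that carry HOXA13 with an HA epitope tag. The untagged cells were precipitated with an antibody to HOXA13 and the tagged cells with an antibody to HA, and each list compared such a ChIP with the input of the same cells. The promoter that drives the tagged gene, and whether the transfected cells were a clone or a pool, were not given in the sources used here. All 4 IgG libraries were not analysed here.

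HOXA13 is a homeodomain transcription factor of the HOXA cluster, known for its part in the patterning of the distal limb and the hindgut and urogenital tract. The short arm of chromosome 6 holds the large cluster of replication-dependent histone genes, many transfer RNA genes and the major histocompatibility complex (MHC), whereas the long arm contains long gene-poor stretches. A peak caller marks places where ChIP reads exceed those predicted from input, so a list called with a permissive limit holds many places that exceed input by a few reads only, and their number per megabase depends on how many reads a stretch receives as well as on binding.

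The HepG2 lists held 5981 peaks on chromosome 6 with anti-HOXA13 and 3355 with anti-HA, which were 8.31% and 9.63% of all chromosome 1 to 22, X and Y peaks of those lists. The Huh7 lists held 748 peaks with anti-HOXA13 and 2253 with anti-HA, or 7.18% and 7.82%. Per covered megabase, chromosome 6 stood at 1.70 and 2.06 times the median autosome in HepG2 and at 1.21 and 1.26 times in Huh7, anti-HOXA13 first in each case. It ranked between 3 and 6 among the 22 autosomes in all 4 lists. No list had a peak between 58780145 and 61887762, which was taken as the gap at the centromere, so the split at 60 Mb lay inside the gap and assigned no peak ambiguously. The covered length was 58.8 Mb on 6p and 109 Mb on 6q.

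The arms were ordered one way in HepG2 and the opposite way in Huh7, with either antibody. HepG2 anti-HOXA13 had 2579 peaks on 6p and 3402 on 6q, or 43.9 and 31.2 per Mb. HepG2 anti-HA had 1421 and 1934 peaks, or 24.2 and 17.7 per Mb. Peaks were thus denser on 6p in both HepG2 lists. The density on 6p over that on 6q was 1.41 (95% interval 1.34 to 1.48) for HepG2 anti-HOXA13 and 1.36 (1.27 to 1.46) for HepG2 anti-HA. In HepG2 anti-HA it was 1.51 (1.37 to 1.68) among peaks with q of 0.05 or less and 1.21 (0.955 to 1.54) among folds of 5 or more. In Huh7 the long arm was the denser arm in both lists. Huh7 anti-HOXA13 had 136 peaks on 6p and 612 on 6q, or 2.31 and 5.61 per Mb, a ratio of 0.413 (0.340 to 0.498). Huh7 anti-HA had 379 and 1874 peaks, or 6.45 and 17.2 per Mb, a ratio of 0.376 (0.335 to 0.420), which was 0.696 (0.452 to 1.05) among its 121 peaks with q of 0.05 or less. Intervals on densities, shares and folds in this text are exact 95% intervals that cover counting error only. Those on folds cover the ChIP count alone and take the expected pileup as fixed, so they are too narrow. Those on densities and shares take peaks as independent counts, so they are too narrow where peaks lay in clusters. In HepG2 anti-HOXA13, joining summits within 10 kb gave a ratio of 1.18 (1.10 to 1.26). With 1 library per list the difference between cell lines has no replicate check and no test was made.

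The fitted breaks in density lay inside 6q in both cell lines and not at the centromere, but their uncertainty was not computed. In Huh7 this rested on the bins at 62 to 63 and 63 to 64 Mb. They held 2 and 2 anti-HOXA13 peaks and 3 and 6 anti-HA peaks, so a Huh7 step at the gap itself was not excluded. When each profile was divided where a given number of constant levels described the 1 Mb bins with the highest Poisson likelihood, both HepG2 lists broke at 68 Mb, inside 6q, with 3 levels. HepG2 anti-HOXA13 fell there from 45.4 to 12.9 peaks per Mb and returned to 41.7 beyond 112 Mb. HepG2 anti-HA fell from 24.3 to 6.39 per Mb at 68 Mb and returned to 23.7 beyond 106 Mb. Each HepG2 profile was therefore high on 6p, high just past the centromere, low over the middle of 6q and high again towards the end of 6q. Both Huh7 lists, divided into 2 levels, broke at 64 Mb, where Huh7 anti-HOXA13 rose from 2.30 to 5.68 peaks per Mb and Huh7 anti-HA from 6.38 to 17.4 per Mb. With 2 levels the HepG2 anti-HOXA13 profile also broke at 68 Mb, but that of HepG2 anti-HA at 117 Mb, from 17.6 to 25.1 per Mb. With 3 levels Huh7 anti-HOXA13 broke at 64 and 68 Mb, with 2.30, 9.25 and 5.54 peaks per Mb. The steps at 68 and 64 Mb were visible between neighbouring bins. From the bin at 67 to 68 Mb to the bin at 68 to 69 Mb, the counts went from 58 to 13 in HepG2 anti-HOXA13 and from 26 to 4 in HepG2 anti-HA. The Huh7 counts also fell between these bins, from 9 to 1 with anti-HOXA13 and from 11 to 5 with anti-HA. From 63 to 64 Mb to 64 to 65 Mb they went in Huh7 from 2 to 8 with anti-HOXA13 and from 6 to 22 with anti-HA. The number of levels was chosen after the profiles were seen.

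**Figure D1:**
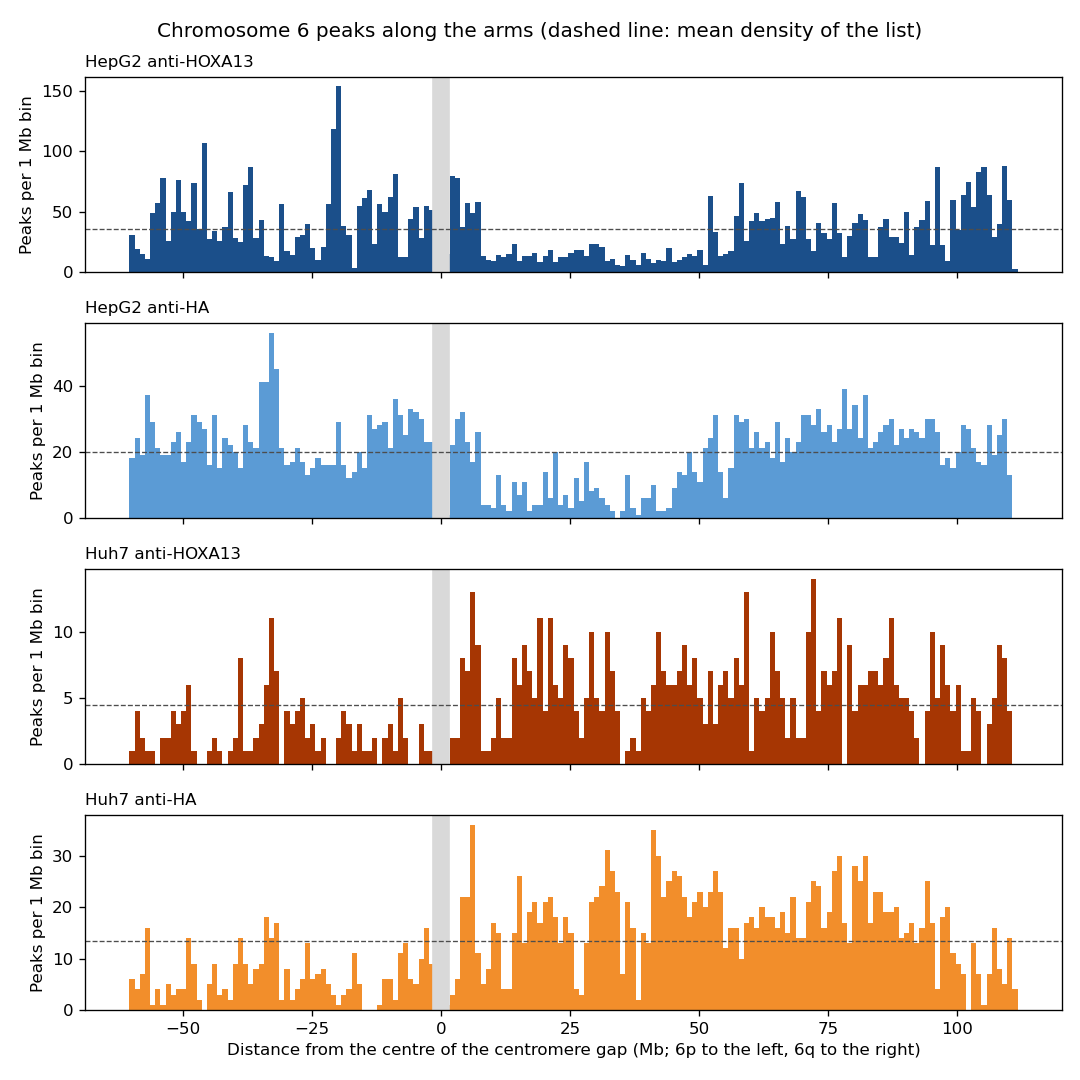
Peaks per 1 Mb bin along chromosome 6 in the 4 lists, against the distance from the centre of the centromere gap in Mb (grey band: the gap; dashed line: mean density of the list on chromosome 6). The HepG2 profiles are low in the middle of 6q, whereas the Huh7 profiles are low on 6p and high on most of 6q.

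The stretch from 68 to 106 Mb, low in both HepG2 lists, was as a whole not low in Huh7. It covered 38 bins. Its boundaries were fitted to the HepG2 lists, so its low HepG2 values and the lack of reverse bins below follow largely from that choice. HepG2 anti-HOXA13 had 492 peaks there (12.9 per Mb), and every one of the 38 bins was below the chromosome 6 mean of that list, 35.6 per Mb. HepG2 anti-HA had 243 peaks (6.39 per Mb), with 37 of 38 bins below its mean of 20.0 per Mb. The Huh7 lists ran at or above their means in most of the same bins. Huh7 anti-HOXA13 had 201 peaks (5.29 per Mb, 23 of 38 bins above the mean) and Huh7 anti-HA had 652 (17.2 per Mb, 26 of 38 bins above the mean). In 19 of the 38 bins both HepG2 lists were below and both Huh7 lists above their means, and in 0 of 38 was it the other way round. Set against 6p, the density of this stretch was 0.295 (0.267 to 0.325) for anti-HOXA13 and 0.265 (0.230 to 0.303) for anti-HA in HepG2. With q of 0.05 or less it was 0.160 (0.105 to 0.234) for HepG2 anti-HOXA13. The same ratio in Huh7 was 2.29 (1.83 to 2.86) for anti-HOXA13 and 2.66 (2.34 to 3.03) for anti-HA. With q of 0.05 or less, the Huh7 ratios were 1.70 (0.656 to 4.47), from 11 and 10 peaks, and 1.12 (0.636 to 1.96), from 24 and 33 peaks, so that a difference from 6p was not detectable among these peaks.

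Beyond 112 Mb, the long arm of HepG2 taken as a whole resembled the short arm in density. From 112 Mb to the end, HepG2 anti-HOXA13 had 2462 peaks and HepG2 anti-HA 1447, and their densities were 0.950 (0.899 to 1.00) and 1.01 (0.942 to 1.09) times those of 6p. Neither HepG2 list was level there. With 4 levels the HepG2 anti-HOXA13 profile also broke at 161 Mb, from 37.1 to 64.4 peaks per Mb. That of HepG2 anti-HA also broke at 117 Mb, from 16.6 to 25.1 peaks per Mb. In Huh7 the distal stretch as a whole stood at 2.43 (1.99 to 2.99) and 2.60 (2.31 to 2.94) times 6p, anti-HOXA13 first. Its last part was lower in Huh7 anti-HA, whose profile with 3 levels broke at 159 Mb, from 18.5 to 8.17 peaks per Mb. The 6.11 Mb between the gap and 68 Mb were dense in HepG2, with 61.2 peaks per Mb for anti-HOXA13 and 24.7 for anti-HA. These were 1.39 (1.25 to 1.55) and 1.02 (0.858 to 1.21) times 6p. The Huh7 lists were low in the part of it before 64 Mb, so the 4 Mb from 64 to 68 Mb were the only place along the chromosome where the high levels fitted to the cell lines met before 106 Mb. Across the 168 bins that were covered for the most part, 30 had both HepG2 lists below and both Huh7 lists above their means, 29 had the reverse, 14 had all 4 lists above and 21 all 4 below. Of the 29 reverse bins, 23 lay on 6p.

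**Figure D2:**
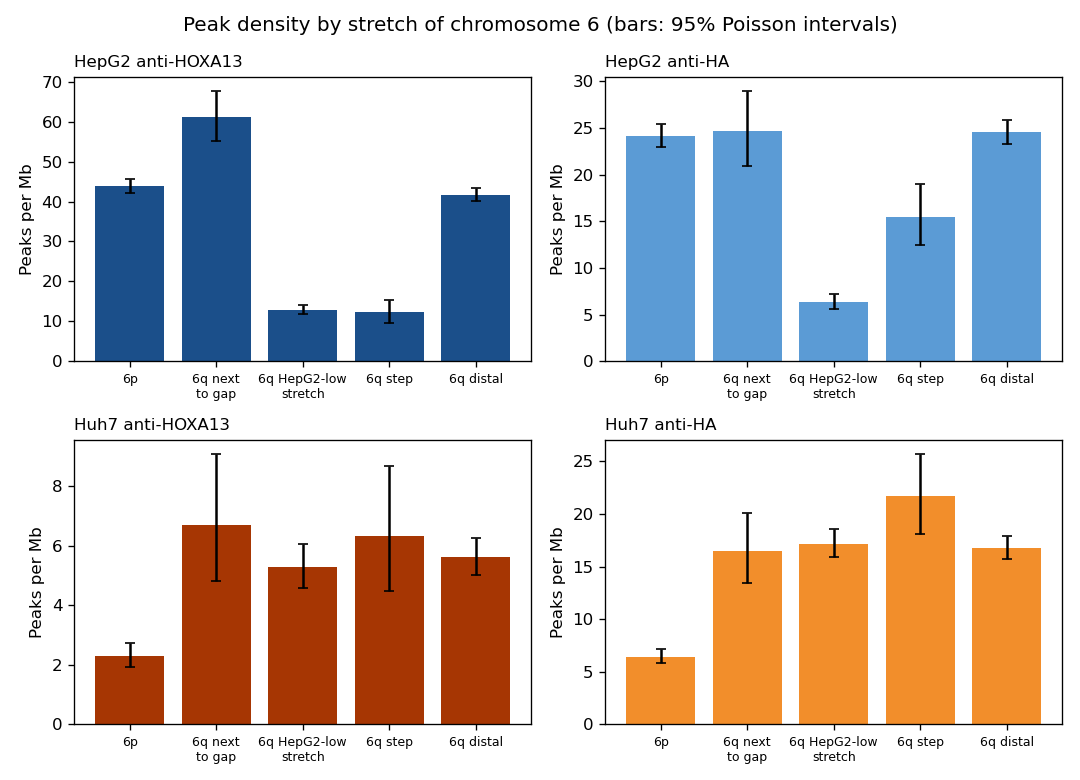
Peaks per Mb in 6p and in 4 consecutive stretches of 6q (from the gap to 68 Mb, 68 to 106 Mb, 106 to 112 Mb and 112 Mb to the end), with 95% Poisson intervals, each list on its own axis. Density in the HepG2-low stretch is 12.9 and 6.39 per Mb in the HepG2 lists, under their 6p values, and 5.29 and 17.2 per Mb in the Huh7 lists, above their 6p values.

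Between 106 and 112 Mb the HepG2 lists parted. HepG2 anti-HOXA13 stayed low, with 74 peaks or 12.3 per Mb, which was 0.953 (0.736 to 1.22) times its density in the stretch before. HepG2 anti-HA held 93 peaks or 15.5 per Mb, 2.42 (1.89 to 3.09) times the stretch before. The limits of this window are fitted boundaries, 106 Mb from HepG2 anti-HA and 112 Mb from HepG2 anti-HOXA13. Both ratios therefore follow largely from that choice. The additional anti-HA peaks included many strong ones, as given below. A strong peak is taken here as one with a −log10 q of 5 or more, q being the authors' p adjusted for multiple testing, and a peak with raised input as one whose expected pileup from input exceeded 3 times the genome background of its list.

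Nearly all strong peaks of the chromosome came from HepG2 anti-HA. This list had 642 strong peaks on chromosome 6, 309 on 6p and 333 on 6q, or 19.1% of its peaks, where the background over chromosomes 1 to 22, X and Y was 21.6%. HepG2 anti-HOXA13 had 5 (background 0.753%), Huh7 anti-HOXA13 had 7 (2.55%) and Huh7 anti-HA had 3 (0.399%). All 5 strong HepG2 anti-HOXA13 peaks lay in the last 1 Mb of 6p before the gap and all 5 had raised input. A fold of 5 or more over input was reached by 301 peaks of HepG2 anti-HA (background 10.9%) and by 10 of Huh7 anti-HOXA13 (1.98%). There were 0 among 5981 peaks of HepG2 anti-HOXA13 (background 0.124%), which allows a share of up to 0.0502%, and 0 among 2253 of Huh7 anti-HA (0.0764%), which allows up to 0.133%. The strong share on chromosome 6 was below that of the whole list in all 4 lists, and no strong class was large enough outside HepG2 anti-HA to compare arms.

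In HepG2 anti-HA the depth of the low stretch depended on which peaks were counted. Peaks with q above 0.05 had a density in the 68 to 106 Mb stretch of 0.268 (0.220 to 0.324) times that on 6p, from 127 against 733 peaks. Strong peaks without raised input had 0.588 (0.414 to 0.822) times, from 49 against 129 peaks, or 1.29 against 2.19 per Mb. The strong peaks as a whole had 0.275 (0.203 to 0.368) times, from 55 against 309. The strong peaks that separate these values are those with raised input, of which 6p had more. Raised input marked 24.2% of all HepG2 anti-HA peaks on 6p, 8.64% between 68 and 106 Mb and 14.3% beyond 112 Mb. Its part in the contrast of the stretches was not tested. Beyond 112 Mb, strong peaks had 0.741 (0.622 to 0.882) times the density of 6p, and those without raised input 1.04 (0.812 to 1.34) times. Over whole arms, strong peaks without raised input were about as dense on 6p as on 6q, with a ratio of 1.06 (0.847 to 1.32). They were densest from 106 to 112 Mb, where 34 stood on 6 Mb, or 5.67 per Mb, 4.39 (2.75 to 6.95) times the stretch before. The limits of that window were fitted to counts that include these peaks.

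**Figure D3:**
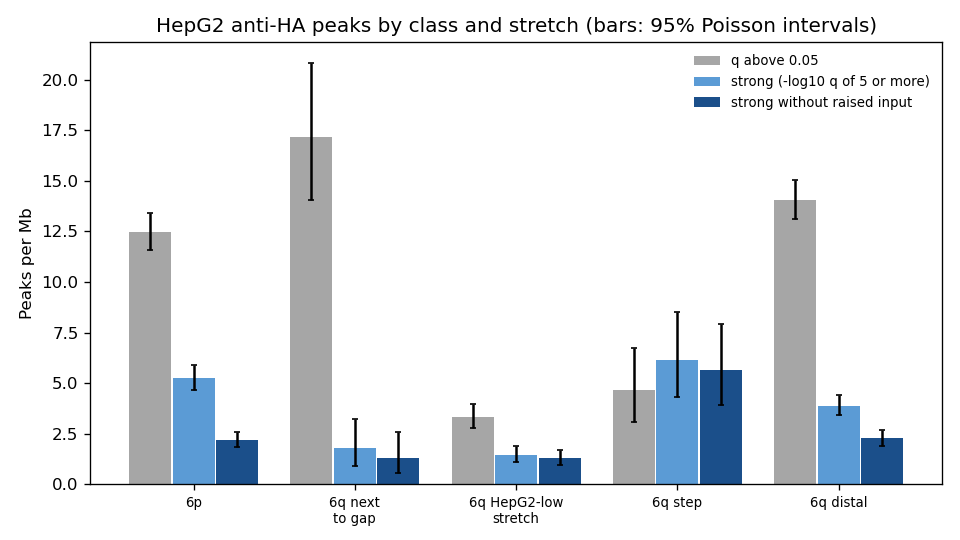
HepG2 anti-HA peaks per Mb in 6p and the 4 stretches of 6q, for peaks with q above 0.05, strong peaks, and strong peaks without raised input, with 95% Poisson intervals. Peaks with q above 0.05 fall from 12.5 per Mb on 6p to 3.34 per Mb in the HepG2-low stretch, while strong peaks without raised input go from 2.19 to 1.29 per Mb.

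The makeup of the peaks also differed between stretches. In HepG2 anti-HOXA13, 10.9% (9.72 to 12.2%) of 6p peaks had q of 0.05 or less, against 5.89% (3.98 to 8.36%) between 68 and 106 Mb. In HepG2 anti-HA, strong peaks without raised input were 20.2% (15.3 to 25.8%) of the peaks between 68 and 106 Mb and 36.6% (26.8 to 47.2%) between 106 and 112 Mb, against 9.08% (7.63 to 10.7%) on 6p and 9.33% (7.88 to 10.9%) beyond 112 Mb. Folds of 5 or more were 14.8% (10.6 to 19.9%) of the peaks between 68 and 106 Mb and 8.37% (6.99 to 9.94%) on 6p. The few peaks of the sparse stretch thus held a larger share of strong ones without raised input than 6p in HepG2 anti-HA and a smaller share with q of 0.05 or less in HepG2 anti-HOXA13. The input level under the peaks differed between stretches as well. It is known only at summits, and its part in the densities was not tested. In HepG2 anti-HOXA13, 47.1% of 6p summits stood at the background level of input (within 0.5%), against 70.1% from the gap to 68 Mb, 88.8% between 68 and 106 Mb, 68.9% between 106 and 112 Mb and 43.7% beyond. In HepG2 anti-HA the shares were 16.7%, 46.4%, 32.1%, 16.1% and 18.0% in the same order. The sparse stretch had the highest share of the 5 in HepG2 anti-HOXA13, whereas in HepG2 anti-HA the dense stretch next to the gap had it. In Huh7 such summits were more frequent on the sparse arm, with 25.7% on 6p and 12.3% on 6q for anti-HOXA13, and 29.8% and 17.4% for anti-HA. The number of copies of each arm in these cells was not measured here, and its part in peak density was not tested.

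The HepG2 anti-HOXA13 peaks were unevenly spread within 6p. Its bins on 6p ranged from 3 to 154 peaks with a median of 38, and the variance of the bin counts was 19.1 times their mean. The HepG2 anti-HA bins on 6p ranged from 12 to 56 with a median of 23 and a variance of 3.11 times the mean. In Huh7 the corresponding ratio was 2.05 for anti-HOXA13 and 3.42 for anti-HA, from fewer peaks per bin. Since this ratio grows with the mean, the variance in excess of the mean was also divided by the squared mean, which gave 0.414 for HepG2 anti-HOXA13, 0.0875 for HepG2 anti-HA, and 0.457 and 0.376 for anti-HOXA13 and anti-HA in Huh7. By that measure HepG2 anti-HA was the evenest of the 4 on 6p and the other lists were much alike. The 3 fullest bins of HepG2 anti-HOXA13 were 40 to 41 Mb with 154 peaks, 39 to 40 Mb with 119 and 14 to 15 Mb with 107. HepG2 anti-HA had 29, 16 and 27 peaks in those bins, Huh7 anti-HOXA13 had 2, 0 and 0, and Huh7 anti-HA had 1, 3 and 0. The fullest bin thus stood out in a single list. Its 154 peaks lay a median of 4.04 kb apart and fell into 23 groups when summits within 10 kb were joined, none had raised input and 0 were strong, with a highest fold of 4.40. Between 68 and 106 Mb, by contrast, the HepG2 anti-HOXA13 bins ran from 5 to 23 with a variance of 1.87 times the mean. Neighbouring summits were a median of 48.6 kb apart there and 9.52 kb apart on 6p, and a joined group held 1.17 peaks there and 2.06 on 6p. After joining, the 68 to 106 Mb stretch had 0.518 times the density of 6p, so that the contrast, 0.295 by single peaks, was smaller when counted by groups.

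The fullest bins of the other lists lay elsewhere. On 6p, the bin at 27 to 28 Mb was the fullest in HepG2 anti-HA with 56 peaks and in Huh7 anti-HOXA13 with 11, and the neighbouring bin at 26 to 27 Mb was the fullest in Huh7 anti-HA with 18. On 6q each list had another fullest bin, at 169 to 170 Mb with 88 peaks (HepG2 anti-HOXA13), 138 to 139 Mb with 39 (HepG2 anti-HA), 132 to 133 Mb with 14 (Huh7 anti-HOXA13) and 66 to 67 Mb with 36 (Huh7 anti-HA). Several bins empty or nearly so in a list of the one cell line were filled in the other, as the bin at 14 to 15 Mb was. HepG2 anti-HA had 0 peaks at 94 to 95 Mb, where Huh7 anti-HA had 23 and HepG2 anti-HOXA13 and Huh7 anti-HOXA13 had 6 and 4. At 165 to 166 Mb the HepG2 lists had 87 and 16 peaks, anti-HOXA13 first, and the Huh7 lists had 0 and 1. The bin at 98 to 99 Mb was among the emptiest of 6q in 3 lists and poor in every list, with 6 and 1 peaks in HepG2 and 1 and 2 in Huh7.

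The bin profiles of the 2 antibodies were alike in Huh7 and only partly alike in HepG2. Correlations are across bins of single libraries, which are not independent replicates, and no p is given. Over 168 bins, the Huh7 lists had Pearson's r of 0.63 (Spearman's rho 0.65), and r was 0.49 within the 59 bins of 6p and 0.47 within the 109 of 6q. The HepG2 lists had r of 0.40 (rho 0.50), but 0.00272 within 6p and 0.58 within 6q. Within the stretch beyond 112 Mb their r was 0.073. The likeness of the HepG2 profiles therefore lay in the low stretch they share and not in the bins of 6p. Between cell lines, HepG2 anti-HOXA13 ran against Huh7 anti-HA, with r of -0.42 over all bins, -0.48 within 6p and -0.52 beyond 112 Mb. HepG2 anti-HA and Huh7 anti-HA had r of -0.12 over all bins and 0.32 within 6p, which is to say opposite signs, with rho of -0.10 and 0.14.

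Both anti-HA lists were dense in the window of the histone genes on 6p, 26 to 28 Mb. They were also dense in the bin after it, 28 to 29 Mb, with 45 and 17 peaks, and at 3 to 4 Mb, with 37 and 16, HepG2 first. HepG2 anti-HA had 97 peaks in the histone gene window, or 48.5 per Mb, 2.08 (1.67 to 2.56) times the rest of 6p. Huh7 anti-HA had 32 peaks, 2.62 (1.76 to 3.77) times the rest, and Huh7 anti-HOXA13 had 17, 4.06 (2.29 to 6.77) times the rest. The anti-HOXA13 list of HepG2 differed, with 25 peaks, 0.278 (0.179 to 0.411) times the rest of 6p. Strong peaks of HepG2 anti-HA were more concentrated still, with 71 of the 642 strong peaks of the chromosome in these 2 Mb, 8.47 (6.40 to 11.1) times the density elsewhere on 6p. Raised input was also frequent there in that list. Of the 97 HepG2 anti-HA peaks, 69 (71.1%) had raised input, with a median expected pileup of 4.32 times the background, against 24.2% over 6p as a whole. Its 28 peaks without raised input had 0.758 (0.501 to 1.10) times the density of such peaks on the rest of 6p, and the 10 strong peaks among them 2.39 (1.12 to 4.54) times. In the Huh7 lists raised input was rare in this window, with 2 of 32 anti-HA and 1 of 17 anti-HOXA13 peaks.

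The MHC window, 28 to 34 Mb, was closer to the rest of 6p in the anti-HA lists. HepG2 anti-HA had 137 peaks there, 0.939 (0.781 to 1.12) times the density elsewhere on 6p, and Huh7 anti-HA had 39, 1.01 (0.705 to 1.41) times. Huh7 anti-HOXA13 had 23, 1.79 (1.09 to 2.82) times, and HepG2 anti-HOXA13 had 156, 0.566 (0.479 to 0.666) times. Within the window the anti-HA peaks of HepG2 were concentrated in its first bin, 28 to 29 Mb, which held 45 of the 137, of which 36 were strong and 33 had raised input. Next to the centromere gap the lists differed again. The last 1 Mb of 6p held 66 anti-HOXA13 and 26 anti-HA peaks in HepG2 and 1 and 11 in Huh7, and the first 1 Mb of 6q held 90 and 18 in HepG2 and 2 and 3 in Huh7.

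Few intervals were shared, and most of those that were lay between the anti-HA lists. Overlap was counted from 1 bp. On chromosome 6, 69 of 3355 HepG2 anti-HA peaks (2.06%) overlapped HepG2 anti-HOXA13, where 4.95% did so over chromosomes 1 to 22, X and Y, and 68 of 5981 HepG2 anti-HOXA13 peaks (1.14%) overlapped HepG2 anti-HA, against 2.37%. In Huh7, 20 of 2253 anti-HA peaks (0.888%) overlapped anti-HOXA13, against 0.639%, and 20 of 748 anti-HOXA13 peaks (2.67%) overlapped anti-HA, against 1.77%. Sharing between antibodies was thus lower on chromosome 6 than over the genome in HepG2 and within counting error of the genome's share in Huh7. Between the anti-HOXA13 lists, 14 of 748 Huh7 peaks (1.87%, genome 2.47%) and 14 of 5981 HepG2 peaks (0.234%, genome 0.364%) overlapped. Between the anti-HA lists, 190 of 2253 Huh7 peaks (8.43%, genome 8.85%) and 186 of 3355 HepG2 peaks (5.54%, genome 7.05%) overlapped. Restricted to q of 0.05 or less in both lists, the anti-HA overlap was 35 of 121 Huh7 peaks (28.9%), that of the HepG2 antibodies 6 of 1532 anti-HA peaks (0.392%) and that of the Huh7 antibodies 0 of 121, which allows up to 2.48%. The genome's share of peaks restricted in this way is not given here, so these values do not set chromosome 6 apart.

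The anti-HA overlap was the largest and was the only one with enough intervals to be followed along the chromosome. Counted in the Huh7 list, it took 81 of 379 peaks on 6p (21.4%, 17.4 to 25.9%) and 109 of 1874 on 6q (5.82%, 4.80 to 6.97%). Counted in the HepG2 list, it took 78 of 1421 peaks on 6p (5.49%) and 108 of 1934 on 6q (5.58%). The Huh7 share thus differed between arms, while the HepG2 shares were close. Among HepG2 peaks without raised input the shares were lower, and further apart, at 17 of 1077 on 6p (1.58%) and 57 of 1688 on 6q (3.38%). In the histone gene window 19 of 32 Huh7 anti-HA peaks (59.4%, 40.6 to 76.3%) overlapped HepG2 anti-HA, and in the MHC window 14 of 39 (35.9%, 21.2 to 52.8%) did. All 18 HepG2 anti-HA peaks that took part in the histone gene window had raised input in HepG2, since 0 of its 28 peaks without raised input overlapped. With peaks of raised input removed from both lists, the anti-HA overlap on chromosome 6 fell to 3.38% of Huh7 peaks. For this restriction, too, the genome's share is not given here.

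Merged over the 4 lists, chromosome 6 gave 11694 regions held by 1 list, 302 by a pair of lists, 9 by 3 lists and 0 by all 4. No genome share of merged regions is given here, so these counts do not set chromosome 6 apart. Of the 9, the region at chromosome 6, 33068858 to 33069265, inside the MHC window, was the one held by both anti-HOXA13 lists without raised input, at 4.14-fold in HepG2, 7.94-fold in Huh7 and 2.71-fold in HepG2 anti-HA. The 3 regions between 58776219 and 58779569, at the edge of the centromere gap, were held by both HepG2 lists and Huh7 anti-HA at 1.30- to 2.13-fold, on input of 48.8 to 64.5 times the background. The other 5 were held by HepG2 anti-HA and both Huh7 lists. Among these, the region at 101396275 to 101397007, within the HepG2-low stretch, reached 7.77-fold in HepG2 anti-HA, 3.09-fold in Huh7 anti-HOXA13 and 1.83-fold in Huh7 anti-HA.

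The highest folds of the chromosome were those of HepG2 anti-HA, and the highest value among them lay inside the stretch where HepG2 peaks were sparse. The interval from 71558992 to 71559947 stood at 31.1-fold over input (25.8 to 37.1, from 120 ChIP fragments), on input at 1.11 times the background. Huh7 anti-HA had a peak of 2.83-fold in it and neither anti-HOXA13 list had a peak there. On 6q it was followed by 138159195 to 138159797 at 23.5-fold (19.6 to 27.8) and 131420803 to 131421304 at 20.3-fold, which no other list held. The counting intervals at 31.1- and 23.5-fold overlapped, so the order of these peaks is not resolved. On 6p the 3 highest were 10613316 to 10613770 at 21.7-fold (Huh7 anti-HA 3.74-fold), 21264383 to 21265063 at 21.5-fold and 24330425 to 24331025 at 21.1-fold, the last pair without a peak in any other list. The counting intervals of these 3 overlapped (18.0 to 25.9, 18.1 to 25.3 and 17.8 to 25.0), so their order on 6p is not resolved.

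In Huh7 anti-HOXA13 the highest 6p peak was the interval at 33068962 to 33069265, at 7.94-fold (5.59 to 11.0), which belongs to the region held by 3 lists. The next on 6p, 28294195 to 28294499 at 5.53-fold and 52064935 to 52065195 at 5.24-fold, were found in that list alone. So were the 3 highest on 6q, 112650062 to 112650349 at 6.37-fold, 88741291 to 88741582 at 6.14-fold and 144524121 to 144524321 at 6.02-fold. The Huh7 anti-HA list reached 4.93-fold (3.23 to 7.24) on 6p, at 28849094 to 28849268, where HepG2 anti-HA stood at 4.65-fold. Its next 6p peaks, 35420114 to 35420283 at 4.37-fold and 26569039 to 26569190 at 4.30-fold, also had HepG2 anti-HA peaks, of 2.35- and 4.69-fold. All 3 leading 6p peaks of Huh7 anti-HA were thus shared with HepG2 anti-HA, whereas the 3 leading peaks on 6q, at 171021349 to 171021477 (4.51-fold), 124469423 to 124469666 (4.44-fold) and 171022136 to 171022549 (4.43-fold), were not. The HepG2 anti-HOXA13 list reached 4.77-fold (2.64 to 8.06) at 15116527 to 15116775 on 6p and 4.70-fold (2.60 to 7.94) at 129730396 to 129730525 on 6q, each from 12 ChIP fragments and in no other list. The folds at the top of that list therefore rested on few fragments, and its leaders on either arm could not be ordered.

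Chromosome 6 was set against the autosomes whose gap could be read in the same way, 17 in all. Of the other 16, 15 had a lower p-arm over q-arm density than chromosome 6 in each HepG2 list, and 15 had a higher one in each Huh7 list. The exceptions were chromosome 4 in HepG2 anti-HOXA13 (1.79), chromosome 18 in HepG2 anti-HA (1.43) and chromosome 9 in both Huh7 lists (0.231 and 0.256). The median autosome stood between 0.970 and 1.09 in the 4 lists. Ratios above 1 in both HepG2 lists and below 1 in both Huh7 lists occurred on 3 of the 17, chromosomes 6, 10 and 16. Arms were opposed the other way round on chromosomes 11 and 17. With anti-HOXA13 and anti-HA, chromosome 11 had 0.849 and 0.855 in HepG2 and 2.30 and 2.79 in Huh7. Chromosome 17 had 0.761 and 0.728 in HepG2 and 1.71 and 1.66 in Huh7. Chromosome 20 had 0.678 in HepG2 and 2.69 in Huh7 with anti-HOXA13, but 1.07 and 2.42 with anti-HA. Divided by the Huh7 ratio of the same antibody, the HepG2 ratio of chromosome 6 was 3.41 with anti-HOXA13 and 3.63 with anti-HA. The same quotients were 3.55 and 2.57 on chromosome 9, but from ratios below 1 in all 4 lists. Since chromosome 6 was selected for these ratios, its rank is a description of the choice.

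**Figure D4:**
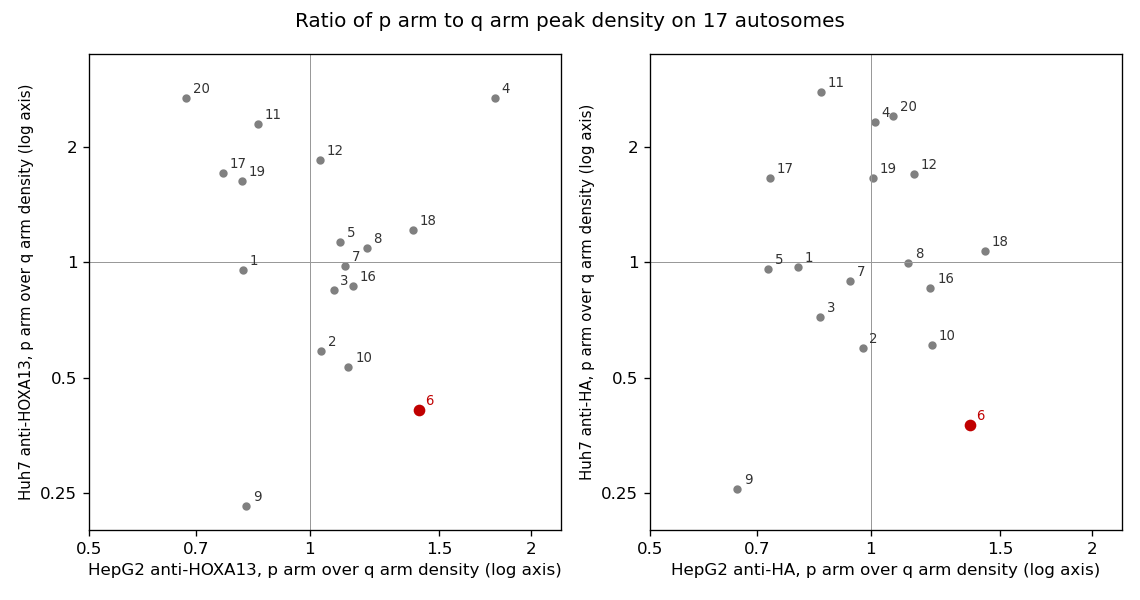
Density of peaks on the p arm over that on the q arm for 17 autosomes, HepG2 on the horizontal and Huh7 on the vertical log axis, for anti-HOXA13 (left) and anti-HA (right), each point being 1 chromosome from 1 library per cell line. Chromosome 6 (red) is at 1.41 and 0.413 on the left and at 1.36 and 0.376 on the right, in the quadrant where the p arm is denser in HepG2 and the q arm in Huh7.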

How the data were processed

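ChIP-seq libraries (12, of which 4 input and 4 IgG) were made from HepG2 and Huh7 cells with and without HA-tagged HOXA13, per the labels' protocols. The submitters' processing notes name BWA and MACS2, with versions not given in the sources used here. These notes name GRCh38, but the sequence names in the lists are those of GRCh37 with decoy and a chromosome 6 peak ended at 171039115, beyond that chromosome's end in GRCh38. Positions were read as GRCh37, without conversion, and are 1-based. No gene was named from position because no GRCh37 annotation was used here; the histone gene and MHC windows are background knowledge.

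The deposited fold is the authors' ratio, at the summit, of ChIP pileup over expected pileup, 1 being added to both. The deposited significance columns hold −log10 p and −log10 q; a lowest −log10 p of 2.00 in each list means a limit at p of 0.01, with none on q. One other deposited column gives the summit's offset from the start of the interval. From fold and p, ChIP and expected pileup were solved with MACS2's published formulas for all chromosome 6 peaks. The commonest value among the lower expected pileups of a list was taken as its genome background (in HepG2 1.73 for anti-HOXA13 and 2.62 for anti-HA, in Huh7 2.60 and 2.61). The ChIP pileup of Huh7 anti-HOXA13 had been scaled by 0.812. The labels state 50 M reads (M, 1e6 reads) per sample; the depth in the lists is otherwise unknown, and PCR duplicates are not independent molecules, so intervals cover counting error only.

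Where all lists lacked peaks for at least 1 Mb, the sequence counted as not covered. Binomial intervals are exact (Clopper-Pearson) and intervals of densities and folds are Poisson, at 95%. With 1 library per condition no test was made. Named regions are the 3 highest folds per list and arm, the regions in 3 or more lists, the 3 fullest and emptiest bins, and the windows given. The members, windows and rules were chosen with earlier results of these data known; the stretches of 6q, the number of levels, the joining of summits by stretch and the bins of 0.5 and 2 Mb were chosen after seeing the data. Alternatives were q of 0.05, raised input, joined summits, equal list lengths (10414 peaks), bin sizes and left-out windows. Scripts used Python 3.11.15 with matplotlib 3.10.9, numpy 2.4.6, scipy 1.17.1 and pandas 2.3.3, and were tested on simulated lists.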

Additional observations from a re-analysis of the deposited data

Results flagged for a closer look

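The density of 6p over 6q lay above 1 in each HepG2 list, at 1.41 for anti-HOXA13 and 1.36 for anti-HA, and below 1 in each Huh7 list, at 0.413 and 0.376. The density between 68 and 106 Mb over that of 6p lay below 1 in each HepG2 list, at 0.295 and 0.265, and above 1 in each Huh7 list, at 2.29 and 2.66. Every list of the one cell line thus lay on one side of 1 and every list of the other on the opposite side, with either antibody. These differences between cell lines were not tested, since each list came from 1 library, and the chromosome and the stretch were chosen on these values.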

How the results depend on the processing

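No ratio of 6p over 6q changed sides of 1 under the 32 alternatives tried for it, and 17 stayed within the counting interval. Of these 17, the equal list length in Huh7 anti-HOXA13 could not move, since that length was the whole list. Strong peaks and folds of 5 or more were not among these alternatives. In HepG2 anti-HA the ratio was 1.72 (1.47 to 2.02) for all strong peaks. It was 1.06 (0.847 to 1.32) for strong peaks without raised input and 1.21 (0.955 to 1.54) for folds of 5 or more. For HepG2 anti-HOXA13 the ratio moved to 1.72 with q of 0.05 or less, 1.18 with summits within 10 kb joined, 1.66 at equal list length, 1.52 without 26 to 34 Mb and 1.65 as a ratio of bin medians. For HepG2 anti-HA it moved to 1.51 with q of 0.05 or less, 1.25 with q above 0.05, 1.18 without raised input, 1.27 with summits joined, 1.75 at equal list length and 1.15 by bin medians. For Huh7 anti-HOXA13 it moved to 0.337 without 26 to 34 Mb. For Huh7 anti-HA it moved to 0.696 (0.452 to 1.05) with q of 0.05 or less, where 121 peaks were left, 0.425 at equal list length and 0.294 by bin medians. The 68 to 106 Mb stretch over 6p moved in HepG2 anti-HOXA13 to 0.160 with q of 0.05 or less and 0.518 with summits joined, and in HepG2 anti-HA to 0.588 for strong peaks without raised input, 0.312 with summits joined and 0.316 with the boundaries of the other HepG2 list; strong peaks without raised input gave no value in HepG2 anti-HOXA13, which had 0. These alternatives for the stretch were chosen after seeing the data. The overlap of HepG2 anti-HA with HepG2 anti-HOXA13 moved to 1.40% for summits within 100 bp and 0.392% with q of 0.05 or less in both lists. Huh7 anti-HA with Huh7 anti-HOXA13 moved to 0.488% and to 0 of 121, which allows up to 2.48%. Huh7 anti-HA with HepG2 anti-HA moved to 5.86%, to 28.9% with q of 0.05 or less and to 3.38% without raised input. Genome shares are not given for these restricted overlaps. The correlation of the anti-HA profiles, -0.12 over all bins, changed sign to 0.32 within 6p and to 0.024 within 6q. The cause of these changes was not tested. With bins of 0.5 Mb the boundaries lay at 68 and 112 Mb (HepG2 anti-HOXA13), 68 and 107.5 Mb (HepG2 anti-HA), 63.5 Mb (Huh7 anti-HOXA13) and 64 Mb (Huh7 anti-HA), and with bins of 2 Mb they were those of 1 Mb bins. No paired analysis was possible because each condition had 1 library. The same lack of replicates limits every comparison between lists, and peaks with q above 0.05 make up 90.2% and 54.3% of the chromosome 6 peaks of HepG2 anti-HOXA13 and HepG2 anti-HA and 92.6% and 94.6% of the same lists in Huh7.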
